A study of Mus musculus with 12 samples.

Results

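RNA levels of 53 genes of the extracellular matrix were examined in sorted cardiomyocytes (CMs, the contractile cells of the mouse heart) that carried or lacked Srf, the gene of serum response factor (SRF). The 53 genes were listed by symbol, with earlier results of these data known, and all 53 were found among the 23337 genes of the count tables. They were grouped by role as 14 basement membrane genes, 8 interstitial collagen genes, 8 fibronectin, elastic fibre and fibulin genes, 8 matricellular genes, 4 proteoglycan genes, 7 genes of proteases and their inhibitors, 3 genes of crosslinking enzymes and the matrix receptor gene Cd44. All mice had a reporter allele (Cas9GFP, tdTomato or mTmG) whose fluorescence depends on Cre, and all received AAV9-cTNT-Cre, a virus whose cardiac troponin T promoter expresses Cre in CMs. Knockout (KO) mice were Srf-flox/flox and control (CTRL) mice were Srf-flox/+, so that CTRL CMs also lost a copy of Srf and kept an intact copy. For the neonatal comparison, pups were injected at postnatal day (P) 1 and their CMs sorted at P14. For the adult comparison, injection was at P60 and sorting at P90. Per the study's methods the dose was low, so that transduced CMs were a minority within an otherwise normal heart, and the fluorescent cells were isolated by collagenase perfusion and flow sorting. Each of the 4 groups (P14 CTRL, P14 KO, P90 CTRL and P90 KO) had 3 samples. The study counts its replicates of sorted CMs, RNA-seq included, as hearts, while the labels number the samples without naming animals and give neither sex nor which reporter allele a sample carried.

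The extracellular matrix surrounds each CM as a basement membrane of type IV collagen, laminins, nidogens and perlecan, and fills the space between CMs with fibrils of interstitial collagen, fibronectin, elastic fibres and proteoglycans. In the heart, fibroblasts are the main source of interstitial collagen, endothelial cells and CMs add basement membrane proteins, and matricellular proteins such as SPARC, thrombospondins and the CCN proteins signal to cells without building the scaffold. Metalloproteinases cut the matrix, TIMP proteins inhibit them, lysyl oxidases crosslink the fibres and CD44 binds hyaluronan at the cell surface. SRF is a transcription factor that binds a short DNA element called the CArG box, and its target genes include many of the actin cytoskeleton.

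Total counts per sample ran from 9740389 to 23103460, so that a floor of 3 counts stood between 0.138 and 0.326 CPM (read counts relative to library size, with library sizes scaled by TMM factors over all 12 samples). Srf was 56.8 ± 7.25 CPM (SD, n = 3) in P14 CTRL and 23.1 ± 11.8 CPM in P14 KO, and 70.4 ± 11 CPM in P90 CTRL and 29.9 ± 2.55 CPM in P90 KO. In P14 KO replicates 1 to 3 Srf was at 32.1, 27.5 and 9.74 CPM. Its log2 fold change was -1.30 in the neonatal KO (edgeR adjusted p = 0.0628, above the threshold of 0.05) and -1.23 in the adult KO (adjusted p = 0.00347). Summed over 8 CM markers, levels were 98120 to 107900 CPM in P14 CTRL, 73850 to 79220 CPM in P14 KO, 98310 to 107000 CPM in P90 CTRL and 92860 to 94250 CPM in P90 KO, against 8.1 to 26.97 CPM for 11 fibroblast markers and 250.5 to 607 CPM for 10 endothelial markers over all 12 samples. None of the 11 fibroblast and 10 endothelial markers was at 0 in all samples. The CM list holds Myh6, Tnni3, Ryr2 and Actn2, which the study reports as changed in the neonatal KO. In that KO 7 of the 8 CM markers had a negative log2 fold change, and 4 an unadjusted edgeR p under 0.05. In the adult KO 5 of 8 were positive, and 6 had such a p. The shares of all genes with such a p were 25.6% and 16.2%. The CM sum is thus no measure of the number of CMs, which was not tested.

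Replicate 2 of P14 CTRL stood apart within its group in the matrix genes. It held the lowest of the 3 P14 CTRL values for 43 of the 53 genes, against 38.0% of all genes tested at this stage, and for 8 of 8 interstitial collagen genes and 13 of 14 basement membrane genes. The summed interstitial collagens were 337, 108.8 and 280.4 CPM in P14 CTRL replicates 1 to 3, and Col1a1, a chain of type I collagen, was at 27.4, 8.20 and 33.3 CPM. The same library held the lowest summed fibroblast markers, with 22.3, 16.5 and 22.9 CPM in replicates 1 to 3, and the lowest endothelial markers, with 607, 290.1 and 419.3 CPM. Fbln1 and Emilin2 did not follow it, with coefficients of variation of 1.75% and 2.09% over the P14 CTRL samples against 57.2% for Col1a1. Nor did Timp3, Lox, Lum, Timp1 and Lama5, for which replicate 2 was at 1.01 to 1.6 times the mean of the other P14 CTRL samples. The part of other cell types in the sorted samples in these differences was not tested, and in bulk RNA a change in the number of cells of a type cannot be told apart from a change in RNA per cell. A library of each KO group leaned the same way. P14 KO replicate 3 was lowest in its group for 35 of the 53 genes, against 35.9% of all genes tested at P14. P90 KO replicate 1 was lowest for 37 of the 53, against 37.8% of those genes. Each was lowest for 7 of 8 interstitial collagen genes. The counts called in the neonatal and stage comparisons are given below with and without P14 CTRL replicate 2. So are the non-overlap counts and the summed levels compared, which were not repeated without the KO libraries.

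**Figure D1:**
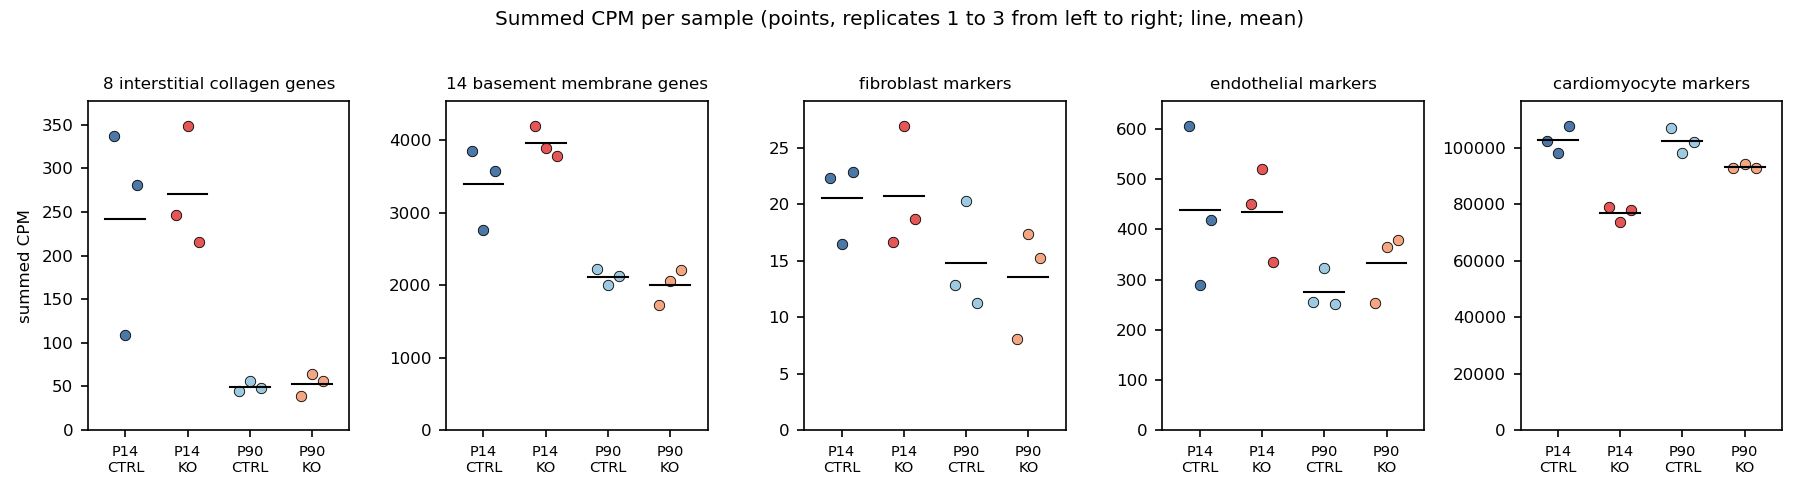
Summed CPM (linear axes from 0) of the 8 interstitial collagen genes, the 14 basement membrane genes and the fibroblast, endothelial and cardiomyocyte marker lists in each of the 12 samples, with replicates 1 to 3 from left to right and a line at the mean of each group. Replicate 2 of P14 CTRL is the lowest P14 CTRL point in all 5 panels, at 108.8 CPM for the interstitial collagens against 280.4 and 337 CPM in the other P14 CTRL samples.

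Levels of different genes were compared as CPM per kilobase of exon length. In P14 CTRL the highest of the 53 was Sparc, at 237 ± 80.2 CPM per kb (SD, n = 3), which encodes a collagen-binding matricellular protein. Lamb2, the laminin beta 2 chain, followed at 142 ± 16.5, then Col4a2 at 118 ± 21.4 and Col4a1 at 109 ± 20.8, the chains of the main basement membrane collagen, and Emilin2, an elastic fibre protein, at 96.8 ± 2.03 CPM per kb. Sparc and Lamb2 each exceeded the next gene in this order by more than either SD, while Col4a2, Col4a1 and Emilin2 followed each other by less than the larger SD. The interstitial collagens were far below them, led by Col3a1 at 20.4 CPM per kb. In P90 CTRL the order had changed: Cyr61, a matricellular CCN protein, was highest at 178 ± 50.5 CPM per kb, followed by Lamb2 at 163 ± 21.8, which differed from it by less than the SD of Cyr61, and by Col4a2 at 45.3 ± 4.17 CPM per kb. Tnc, the gene of tenascin C, was the lowest of the 53 in both, at 0.145 and 0.0399 CPM per kb.

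The KO comparisons ask whether loss of Srf in CMs changes matrix transcripts and whether the answer depends on the stage at which Srf is lost. In the neonatal KO 5 of 53 genes rose and 0 fell (edgeR's quasi-likelihood test, Benjamini-Hochberg adjusted p under 0.05 over all genes), namely Mmp23, Cd44, Ntn4, Fbln1 and Emilin2. That is 9.43% of the genes, where 8.59% of all 12546 genes were called, 3.99% as higher and 4.60% as lower. At an unadjusted p under 0.05 there were 14 of the 53, where 25.6% of all genes were, a share near that background. DESeq2 called 9, of which Timp2 was lower, where it called 14.1% of the genes to which it gave an adjusted p. In the adult KO 2 of the 50 genes that could be tested rose, Ntn4 and Fbln1, and 0 fell, where 0.390% of 11808 genes were called, 0.237% higher and 0.152% lower. At an unadjusted p under 0.05 there were 9 of the 50, where 16.2% of all genes were, again near the background. DESeq2 called 4, of which Timp2 was lower, where it called 3.94% of genes. Tnc, Lox and Loxl2 were too low for the adult test. The fitted log2 fold change was positive for 43 of 53 genes in the neonatal KO, with a median of 0.20 where the median over all genes was 0.00, and for 35 of 50 in the adult KO, with a median of 0.15. Both majorities rested in part on single libraries. At P90 the median was 0.04 (31 of 50 positive) without KO replicate 2, 0.09 (30 of 50) without KO replicate 3 and 0.29 (40 of 50) without KO replicate 1, and it was 0.10 (31 of 50) without CTRL replicate 1 and 0.09 (32 of 50) without CTRL replicate 3. At P14 the median was 0.44 (50 of 53) without CTRL replicate 1, 0.31 (44 of 53) without KO replicate 1 and 0.35 (49 of 53) without KO replicate 3. In the other direction, without P14 CTRL replicate 2 the count at P14 was 30 of 53 with a median of 0.06, and without P14 KO replicate 2 it was again 30 of 53 with a median of 0.06. Without either of those libraries Fbln1, Mmp23 and Cd44 were still called, Emilin2 was not called, and Ntn4 was called without the former and not without the latter.

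**Figure D2:**
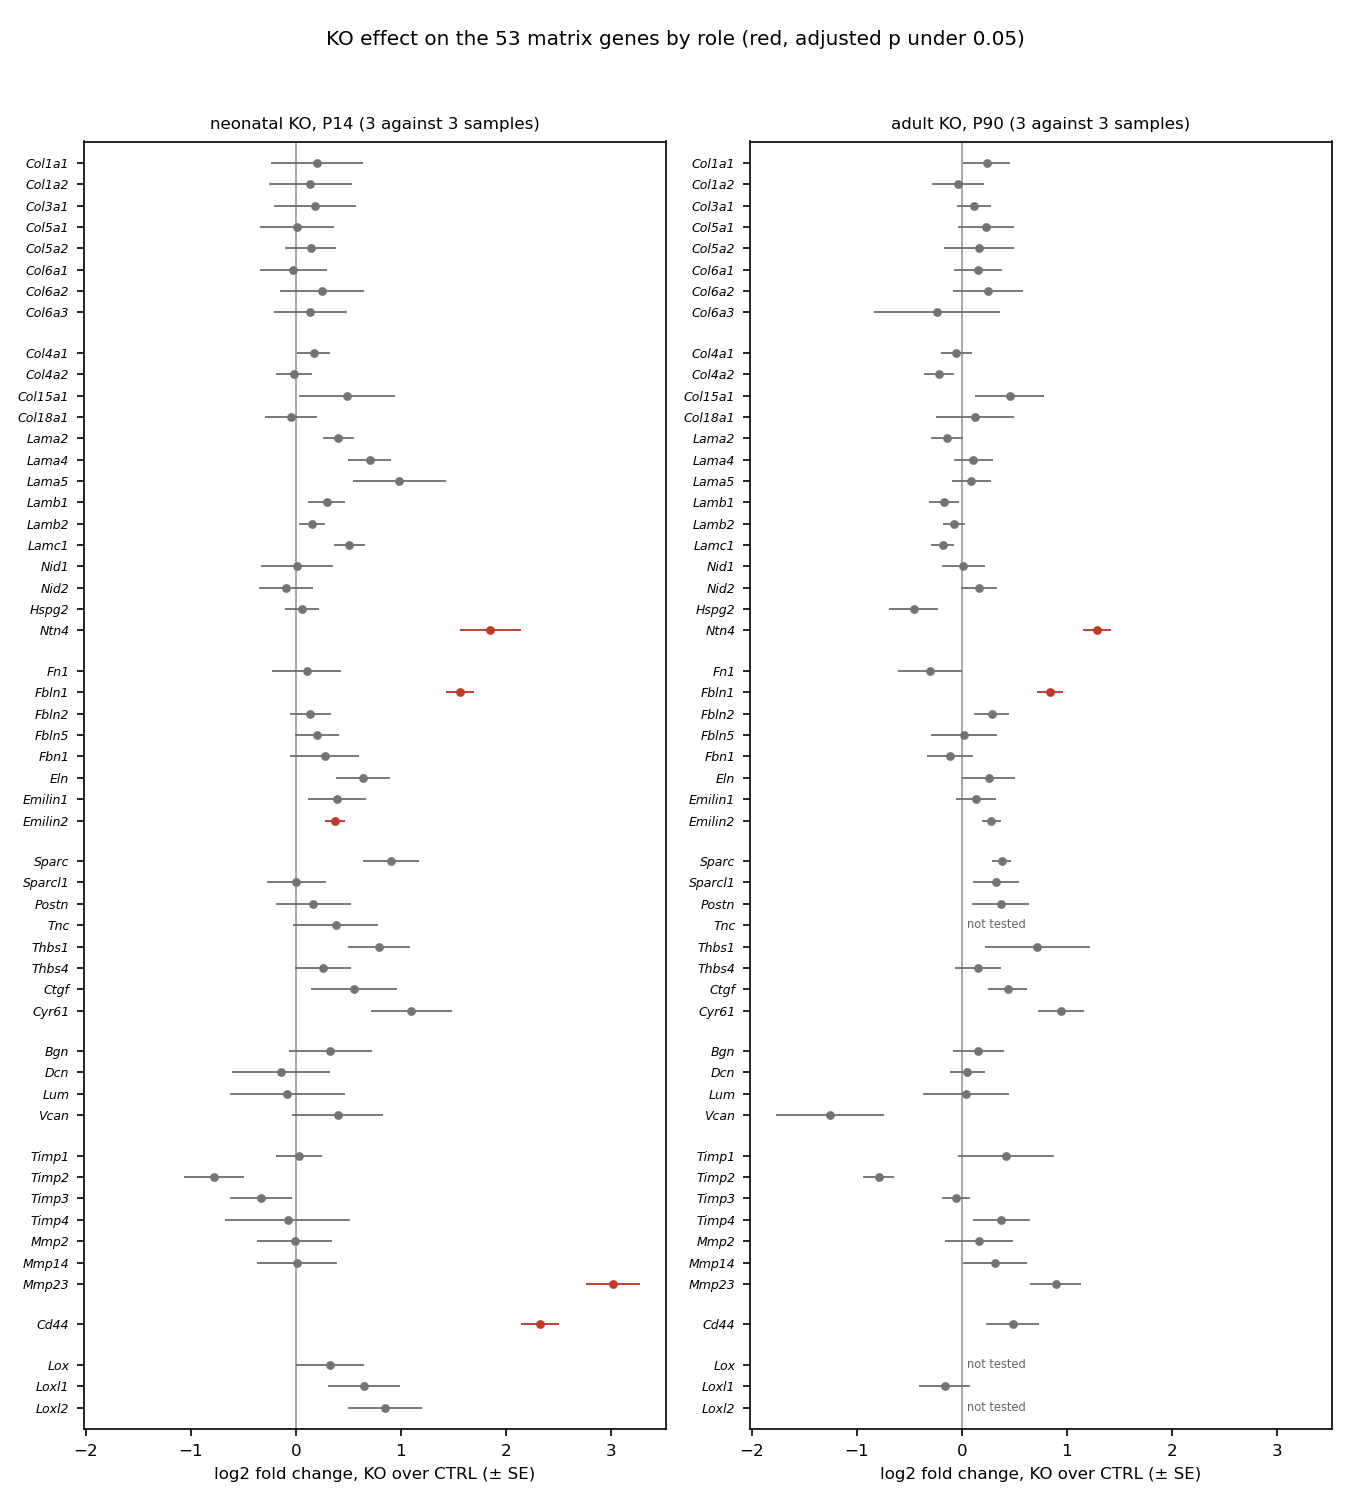
Log2 fold change of KO over CTRL with its standard error for the 53 genes, ordered by role, in the neonatal model (left) and the adult model (right). Red points mark the 5 genes at P14 and the 2 genes at P90 with an adjusted p under 0.05, and Mmp23, at 3.02 in the neonatal KO, lies farthest to the right.

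Genes were also counted whose samples did not overlap between KO and CTRL. The 3 KO values exceeded the 3 CTRL values for 13 of 53 genes at P14 (24.5%), where 16.0% of all genes tested did so, and for 6 of 50 at P90, where 10.4% did. KO lay wholly under CTRL for 1 gene at P14, against 16.7% of all genes, and for 2 at P90, against 11.2%. Fbln1, Ntn4, Mmp23, Emilin2, Sparc and Cyr61 were higher without overlap at both stages, which is 6 of the 50 genes tested at both (12.0%), where 3.31% of 11636 genes were. Timp2 was lower without overlap at both, which is 1 of 50 (2.0%), where 3.71% of all genes were. These 2 comparisons share no samples. The 53 genes were chosen with earlier results of these data known, and these counts were added after values were seen. Their shares beside those of all genes are therefore descriptions and no test of enrichment. Without P14 CTRL replicate 2 the counts at P14 were 14 higher and 2 lower, where 20.7% of all genes were higher and 20.7% lower. At both stages the same 6 genes were then higher, where 4.23% of all genes were, and Timp2 was lower, where 4.44% were.

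**Figure D3:**
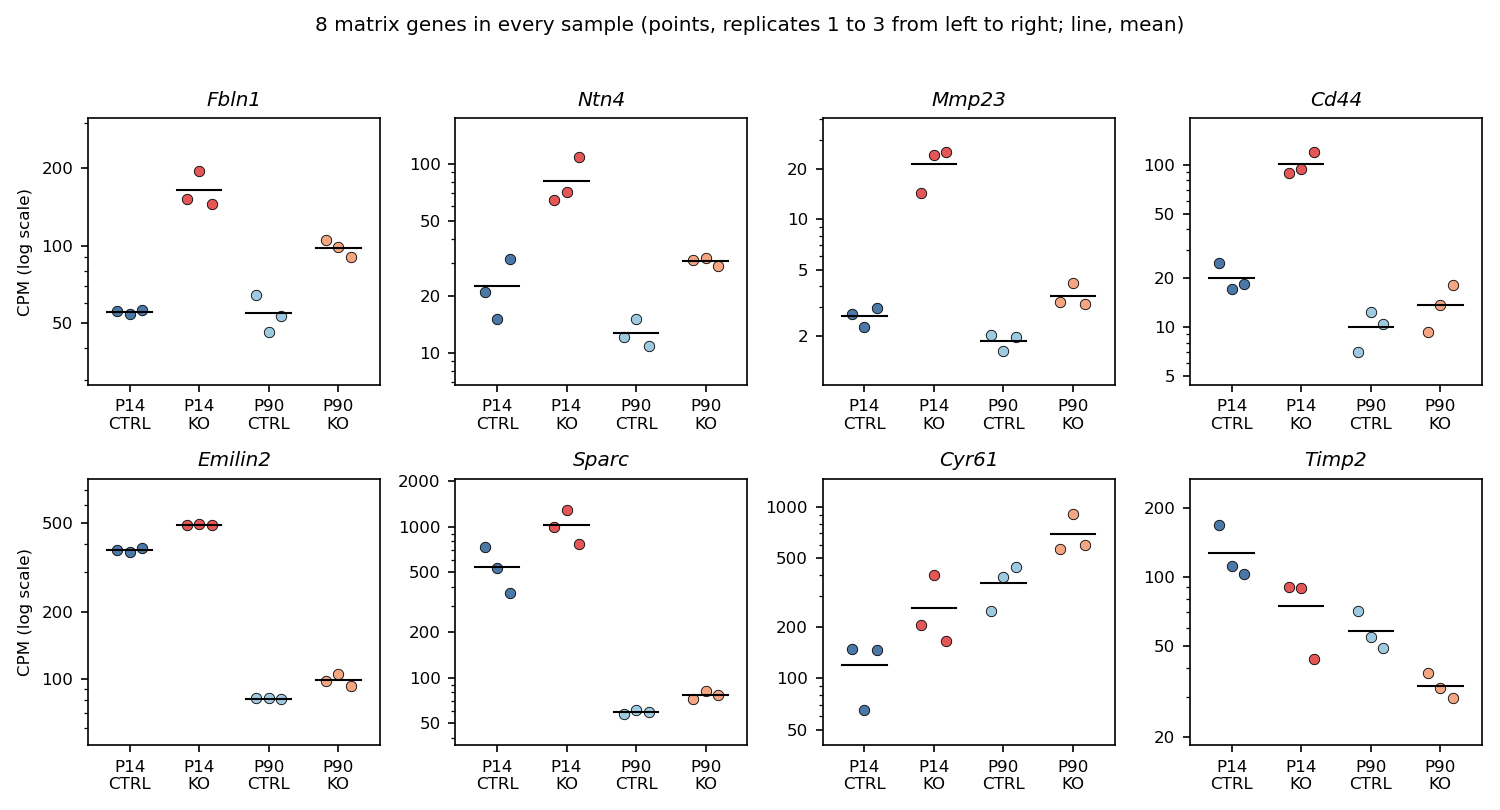
CPM (logarithmic axes) of 8 genes in each of the 12 samples, with replicates 1 to 3 from left to right and a line at the mean of each group. Fbln1, Ntn4, Mmp23, Emilin2, Sparc and Cyr61 are higher in every KO sample than in every CTRL sample of the same age, Timp2 is lower, and Cd44 is separated at P14, at 88.7 to 121 CPM against 17.2 to 24.7 CPM, but not at P90.

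Among the basement membrane genes 1 of 14 rose at each stage, and it was the same gene, Ntn4, which encodes netrin 4, a laminin-related protein of basement membranes. Ntn4 lies on chromosome 10 at 93641049 to 93745972 (mm10, plus strand). Its level was 20.9, 15.1 and 31.5 CPM in P14 CTRL and 64.2, 70.8 and 109 CPM in P14 KO, so that the lowest KO sample was above the highest CTRL sample. The log2 fold change was 1.85 ± 0.29 (SE, adjusted p = 0.0132). In P90 samples Ntn4 was at 12.1, 14.99 and 10.8 CPM in CTRL and 31.0, 31.5 and 28.9 CPM in KO, again without overlap, with a log2 fold change of 1.29 ± 0.14 (adjusted p = 0.00347). The difference between the stages was 0.58 ± 0.35 (log2, adjusted p = 0.404) and did not pass the test.

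The 6 laminin chains among the 53 genes were all positive in the neonatal KO and none passed the test. Lama4, a chain of vessel and CM basement membranes, was at 0.70 ± 0.20 (log2 fold change, adjusted p = 0.0717) and Lamc1, the common gamma chain, at 0.51 ± 0.15 (adjusted p = 0.0743), both with no overlap between KO and CTRL samples. Lama2, the alpha chain of muscle laminin, was at 175, 141 and 192 CPM in P14 CTRL and 231, 193 and 250 CPM in P14 KO, also without overlap, at 0.40 ± 0.15 (adjusted p = 0.136). At P90 Lama2 was at 96.5, 87.8 and 86.7 CPM in CTRL and 59.9, 96.0 and 89.5 CPM in KO, and the groups overlapped (-0.14 ± 0.15, adjusted p = 0.697). Lamb2, the most abundant member of the group per kb, was at 842, 690 and 858 CPM in P14 CTRL and 934, 876 and 855 CPM in P14 KO, with overlap and a log2 fold change of 0.15 ± 0.12. In P90 CTRL it was at 1055, 852 and 834 CPM and in P90 KO at 868, 875 and 847 CPM, inside the CTRL range. Lamc1 was called in the neonatal KO in 4 of the 13 fits run at this stage, Lama4 in 6 and Lama2 in 2.

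The type IV collagen pair Col4a1 and Col4a2, whose starts in RefSeq (GRCm38.p6) lie 21 bases apart on opposite strands of chromosome 8, did not pass the test in either KO. Their neonatal log2 fold changes were 0.17 ± 0.16 and -0.02 ± 0.17, and their adult ones -0.05 ± 0.15 and -0.22 ± 0.15. Perlecan (Hspg2), at 0.06 ± 0.17 in the neonatal KO and -0.46 ± 0.23 in the adult KO, the nidogens Nid1 and Nid2 and the endostatin-bearing collagens Col15a1 and Col18a1 were not called at either stage. The exons of Nid2 share positions with 2700060E02Rik, so that its counts are uncertain where the counting did not use strand.

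The promoters were read for the CArG box because it is the element that SRF binds. Windows of 250 bases before the start of transcription came from RefSeq (GRCm38.p6) and were given for 37 of the 53 genes, with 45 windows in all. Both strands read alike in this motif, since it is its own reverse complement in form. An exact CArG box was found in 1 of the 45 windows (2.22%), against 1.47% of 32851 windows of all genes, and allowing 1 G or C in the 6-base core gave 6 of 45 (13.3%), against 8.59%. The exact match belonged to Lama2, at position -39 from its start (chr10:27616943-27617192, minus strand). Its window is printed 5′ to 3′ with the CArG box in capitals.
Lama2: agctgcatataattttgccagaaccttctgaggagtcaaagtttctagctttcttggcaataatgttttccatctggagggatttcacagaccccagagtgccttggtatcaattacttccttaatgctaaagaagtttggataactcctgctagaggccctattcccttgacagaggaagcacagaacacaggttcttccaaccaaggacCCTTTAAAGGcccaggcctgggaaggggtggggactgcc
The other 5 windows with a match that has 1 core mismatch belonged to Col1a2, Col6a3, Fbln2, Timp3 and Mmp14. Their 10-base matches, at positions -228, -224, -71, -47 and -38 from the start, are printed in capitals.
Col1a2: CCAAACTTGG
Col6a3: CCTTCATAGG
Fbln2: CCTATTTGGG
Timp3: CCCTATAAGG
Mmp14: CCGAAAAAGG
None of these 6 genes was called in either KO, apart from the 2 alternative neonatal fits that called Lama2. A match in letters is a description and not a site that SRF was shown to bind.

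The windows of the 4 genes with the largest changes in the KO held neither an exact box nor a box with 1 mismatch, which says only that these letters are not in these 250 bases. They are shown because these genes carry the KO results, in the order Ntn4 (chr10:93640799-93641048, plus strand), Fbln1 (chr15:85205758-85206007, plus strand), Mmp23 (chr4:155653291-155653540, minus strand) and Cd44 (chr2:102901666-102901915, minus strand), 5′ to 3′ on the strand of the gene.
Ntn4: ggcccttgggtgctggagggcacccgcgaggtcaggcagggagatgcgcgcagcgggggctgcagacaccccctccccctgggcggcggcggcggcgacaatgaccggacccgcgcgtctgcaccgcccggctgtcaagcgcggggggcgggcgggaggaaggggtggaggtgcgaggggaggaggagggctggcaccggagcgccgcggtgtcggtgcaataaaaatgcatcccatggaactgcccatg
Fbln1: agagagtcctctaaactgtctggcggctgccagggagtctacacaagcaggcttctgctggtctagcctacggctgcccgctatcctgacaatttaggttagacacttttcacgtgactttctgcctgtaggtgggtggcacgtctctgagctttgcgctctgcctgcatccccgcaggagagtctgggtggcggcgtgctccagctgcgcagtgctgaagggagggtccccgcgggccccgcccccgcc
Mmp23: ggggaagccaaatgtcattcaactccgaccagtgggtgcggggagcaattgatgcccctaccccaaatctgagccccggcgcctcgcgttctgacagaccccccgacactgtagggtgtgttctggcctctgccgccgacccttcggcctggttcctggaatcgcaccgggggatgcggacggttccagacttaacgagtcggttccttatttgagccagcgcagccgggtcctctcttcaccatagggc
Cd44: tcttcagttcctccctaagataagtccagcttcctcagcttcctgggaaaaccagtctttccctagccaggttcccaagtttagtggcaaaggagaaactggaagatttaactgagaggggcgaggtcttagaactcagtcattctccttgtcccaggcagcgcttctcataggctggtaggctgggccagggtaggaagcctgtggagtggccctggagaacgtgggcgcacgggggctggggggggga
The GC content of these windows was 73.2%, 62.4%, 62.0% and 56.4% in that order.

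None of the 8 interstitial collagen genes was called in either KO by edgeR or DESeq2, 0 had an unadjusted p under 0.05 at either stage, and their log2 fold changes ran from -0.02 to 0.25 in the neonatal KO and from -0.24 to 0.25 in the adult KO. Col3a1, the type III collagen chain and the most abundant of them per kb, was at 160, 46.6 and 134 CPM in P14 CTRL and at 122, 166 and 100 CPM in P14 KO. The groups overlapped fully and the log2 fold change was 0.19 ± 0.39 (adjusted p = 0.827). Its P90 values were 17.4, 24.2 and 19.4 CPM in CTRL and 17.5, 23.8 and 23.9 CPM in KO (0.11 ± 0.16, adjusted p = 0.774). Summed over the 8 genes the KO mean was 1.12 times the CTRL mean at P14 and 1.07 times at P90, and the summed fibroblast markers were at 1.01 and 0.915 times. Without P14 CTRL replicate 2 the P14 ratio turned to 0.876 for the collagens and was 0.919 for the fibroblast markers.

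Of the fibronectin, elastic fibre and fibulin genes, 2 of 8 rose in the neonatal KO and 1 of 8 in the adult KO. Fbln1 encodes fibulin 1, a calcium-binding glycoprotein that joins fibronectin, laminins and elastic fibres, and lies on chromosome 15 at 85206008 to 85286294 (mm10, plus strand). Its level was 55.6, 54.2 and 56.0 CPM in P14 CTRL and 151, 195 and 145 CPM in P14 KO. The CTRL samples were nearly equal and every KO sample was far above them, with a log2 fold change of 1.56 ± 0.13 (adjusted p = 0.00191). Fbln1 at P90 was at 64.5, 46.2 and 53.4 CPM in CTRL and 105, 98.8 and 89.9 CPM in KO. The adult groups did not overlap either, with 0.84 ± 0.13 (adjusted p = 0.0251), although this call was lost in 4 of 13 fits, at an adjusted p of up to 0.134, among them those without P90 CTRL replicate 3, P90 KO replicate 1 or P90 KO replicate 2, which left Ntn4 as the 1 gene called. The neonatal change was larger by 0.73 ± 0.19 (log2), which did not pass the interaction test (adjusted p = 0.0655).

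Emilin2 encodes a glycoprotein of elastic fibres and spans chromosome 17 from 71252176 to 71310965 on the minus strand of mm10. It was at 379, 371 and 386 CPM in P14 CTRL and 490, 493 and 489 CPM in P14 KO, a narrow and complete separation with a log2 fold change of 0.37 ± 0.10 (adjusted p = 0.0495). This call was made in 4 of 13 fits, and the fold change ran from 0.36 to 0.59 over all 13. In P90 CTRL it was at 81.9, 81.6 and 80.7 CPM and in P90 KO at 97.3, 105 and 92.8 CPM, separated again but not called (0.28 ± 0.09, adjusted p = 0.172). The other members of the group were not called at either stage. Eln, the gene of elastin, was at 0.64 ± 0.26 in the neonatal KO (adjusted p = 0.165), Fbn1, the fibrillin of microfibrils, at 0.28 ± 0.33, and Fn1, fibronectin, at 0.10 ± 0.33, while Fbln2 and Fbln5, relatives of Fbln1, were at 0.14 ± 0.19 and 0.20 ± 0.21. Of the 3 fibulin genes listed, Fbln1 alone passed the test at either stage, a difference between the genes that was not itself tested.

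The 8 matricellular genes all had positive log2 fold changes in the neonatal KO, from 0.00 to 1.10, and the 7 tested at P90 were positive as well, from 0.15 to 0.95. None passed the edgeR test at either stage, where 3 had an unadjusted p under 0.05 at each, beside 25.6% and 16.2% of all genes, and DESeq2 called Sparc at both. Cyr61 (Ccn1 in RefSeq) encodes a secreted integrin ligand of the CCN family and is a known target of mechanical and serum signals. It was at 148, 65.0 and 145 CPM in P14 CTRL and 205, 399 and 165 CPM in P14 KO, which did not overlap (1.10 ± 0.38, adjusted p = 0.118). At P90 it was at 248, 388 and 447 CPM in CTRL and 570, 914 and 597 CPM in KO, again without overlap (0.95 ± 0.22, adjusted p = 0.0888). Its relative Ctgf was at 0.56 ± 0.41 and 0.43 ± 0.19 at the 2 stages, and the groups overlapped at both. The positive signs of Sparcl1 and Postn at P14 rested on CTRL replicate 2. Sparcl1 was at 113, 47.6 and 91.2 CPM in P14 CTRL, with a P14 KO mean of 84.3 CPM. Postn was at 30.3, 10.5 and 28.8 CPM in P14 CTRL, with a P14 KO mean of 26.1 CPM. Over all genes tested, 6292 of 12546 were positive at P14 and 6027 of 11808 at P90.

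Sparc was at 733, 536 and 364 CPM in P14 CTRL and 994, 1300 and 768 CPM in P14 KO, with no overlap and a log2 fold change of 0.90 ± 0.27 (adjusted p = 0.0746). In P90 CTRL it was at 57.2, 61.0 and 59.4 CPM and in P90 KO at 72.0, 81.0 and 77.0 CPM, with 0.38 ± 0.09 (adjusted p = 0.0971). Sparc was called, as higher, in 6 of 13 neonatal fits and in 3 of 13 adult fits. Thbs1, thrombospondin 1, was at 0.80 ± 0.30 in the neonatal KO (adjusted p = 0.136) without overlap. Postn, the periostin gene of activated fibroblasts, was at 0.17 ± 0.36 and 0.37 ± 0.27, with overlap at both stages.

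The promoter window of Cyr61 held the motif GGAATG (read as CATTCC on the other strand), a core letter pattern bound by TEAD factors, which was searched on both strands. It occurred in 8 of 45 windows of the listed genes (17.8%), against 12.6% of all windows. The AP-1 pattern TGANTCA, a palindrome, occurred in 1 of 45 (2.22%), against 6.75%. The Cyr61 window (chr3:145649986-145650235, minus strand) is printed 5′ to 3′ with the TEAD motif in capitals, at position -103 from the start.
Cyr61: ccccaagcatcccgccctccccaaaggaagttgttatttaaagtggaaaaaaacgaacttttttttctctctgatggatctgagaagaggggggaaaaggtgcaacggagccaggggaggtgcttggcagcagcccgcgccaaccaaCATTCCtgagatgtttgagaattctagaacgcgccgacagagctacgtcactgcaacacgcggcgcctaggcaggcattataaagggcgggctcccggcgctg

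The 4 proteoglycan genes were not called at either stage by edgeR or DESeq2, with 0 and 1 at an unadjusted p under 0.05 in the neonatal and adult KO. Dcn, decorin, a small leucine-rich proteoglycan that binds collagen fibrils, led them per kb and was at 49.4, 28.5 and 21.8 CPM in P14 CTRL and 18.9, 55.2 and 16.7 CPM in P14 KO, a wide and overlapping spread (-0.14 ± 0.47, adjusted p = 0.894). In P90 CTRL it was at 14.0, 22.2 and 19.1 CPM and in P90 KO at 17.3, 20.8 and 18.2 CPM, with overlap (0.05 ± 0.17). Vcan, versican, was at 0.98, 1.74 and 0.95 CPM in P90 CTRL and 0.19, 0.46 and 0.87 CPM in P90 KO, lower without overlap at a log2 fold change of -1.26 ± 0.51 that did not pass the test (adjusted p = 0.261) and that rests on 47 and 24 reads.

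Among the proteases and inhibitors 1 of 7 rose in the neonatal KO and none was called in the adult KO. Mmp23 encodes a membrane-anchored metalloproteinase without the usual cysteine switch and spans chromosome 4 from 155650655 to 155653384 on the minus strand of mm10. It was at 2.72, 2.25 and 2.92 CPM in P14 CTRL and 14.3, 24.5 and 25.2 CPM in P14 KO. The KO samples were all far above CTRL, with a mean 8.12 times that of CTRL and a log2 fold change of 3.02 ± 0.26 (adjusted p = 0.00191), the largest of the 53. In P90 samples Mmp23 was at 2.01, 1.63 and 1.98 CPM in CTRL and 3.2, 4.15 and 3.09 CPM in KO, separated but not called (0.89 ± 0.25, adjusted p = 0.126). The neonatal change exceeded the adult change by 2.13 ± 0.35 (log2, adjusted p = 0.021).

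Timp2, an inhibitor of metalloproteinases that also takes part in activating MMP2, had negative log2 fold changes that did not pass the test. It was at 167, 112 and 103 CPM in P14 CTRL and 89.8, 88.9 and 43.9 CPM in P14 KO (-0.78 ± 0.28, adjusted p = 0.13). In P90 CTRL it was at 70.9, 54.7 and 48.6 CPM and in P90 KO at 38.2, 32.8 and 29.5 CPM (-0.79 ± 0.15, adjusted p = 0.0531). KO lay below CTRL without overlap at both stages, and Timp2 was called as lower in 2 of 13 neonatal and 3 of 13 adult fits. Timp1, Timp3 and Timp4 overlapped between KO and CTRL at both stages, as did Mmp2 and Mmp14, a gelatinase and its membrane-bound activator, at -0.01 ± 0.36 and 0.01 ± 0.38 in the neonatal KO.

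The crosslinking enzymes were low and none was called in a KO. Lox, lysyl oxidase, was at 2.81, 3.90 and 2.40 CPM in P14 CTRL and 2.92, 5.36 and 3.18 CPM in P14 KO, with overlap (0.32 ± 0.32, adjusted p = 0.593). At P90 it was at 0.10, 0.43 and 0.40 CPM in CTRL and 0.00, 0.18 and 0.71 CPM in KO, or 11 and 13 reads in all, at or near the floor of 3 counts per library. Loxl1 and Loxl2 were higher without overlap in the neonatal KO, at 0.65 ± 0.34 (adjusted p = 0.282) and 0.85 ± 0.35 (adjusted p = 0.176). For Loxl1 the lowest KO sample, at 2.676 CPM, all but touched the highest CTRL sample, at 2.674 CPM. It still enters the non-overlap count at P14.

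Cd44, the receptor for hyaluronan and a frequent marker of activated and migrating cells, spans chromosome 2 from 102811142 to 102901665 on the minus strand of mm10. It was at 24.7, 17.2 and 18.4 CPM in P14 CTRL and 88.7, 93.6 and 121 CPM in P14 KO, a complete separation with a mean ratio of 5.02 and a log2 fold change of 2.32 ± 0.18 (adjusted p = 0.0017). In P90 samples Cd44 was at 7.06, 12.4 and 10.4 CPM in CTRL and 9.36, 13.6 and 18.2 CPM in KO, which overlapped (0.48 ± 0.25, adjusted p = 0.369). The neonatal change exceeded the adult change by 1.85 ± 0.34 (log2, adjusted p = 0.025). Cd44 is also made by leukocytes and fibroblasts. The summed macrophage markers were 7.35 to 11.9 CPM in P14 CTRL and 10.7 to 15.7 CPM in P14 KO, with 0 of 7 tested called, 7 of 7 at a positive log2 fold change and a median of 0.56, and the fibroblast markers were 16.5 to 22.9 and 16.6 to 27.0 CPM, with 0 of 10 tested called. Of 8 markers of mural cells, the contractile cells of vessels, 1 was called, Cspg4, at a mean of 48.1 CPM in P14 CTRL and 122 CPM in P14 KO (log2 fold change 1.34, adjusted p = 0.0157), while the list's sum was 0.928 times CTRL. The part of those cells in the Cd44 result was not tested.

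The stage by genotype interaction, fitted over all 12 samples as the neonatal minus the adult log2 fold change, called 2 of 53 genes (3.77%), Mmp23 and Cd44, both larger in the neonatal KO, where 1.78% of 12841 genes were called in either direction. Both calls were absent without P90 CTRL replicate 3, without P90 KO replicate 1 and without P90 KO replicate 2. The call of Cd44 was absent also without P14 KO replicate 2, P14 KO replicate 3 or P90 CTRL replicate 2. That of Mmp23 was absent also with limma voom in place of edgeR. For the other 51 genes a difference between the stages was not shown, which does not say that the responses were alike.

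The same genes were then compared between CTRL CMs at P90 and at P14, which asks how matrix transcripts change as CMs mature. Of the 53 genes 43 were lower at P90 (81.1%) and 2 were higher, where 29.3% of 12294 genes were called, 14.9% lower and 14.5% higher. All P90 samples were below all P14 samples for 42 of 53, where 22.8% of all genes were, and above them for 2, where 22.1% were. Without P14 CTRL replicate 2 these counts were 45 and 2, where 30.5% and 31.6% of all genes were. The median log2 fold change was -1.71 over the 53 genes and -0.01 over all genes tested. As the 53 genes were chosen with earlier results of these data known, these shares are no test of enrichment. Stage cannot be told apart from differences in handling or sequencing between the 2 tables, or from the age of the animal at virus injection. Summed over the 53 genes, levels were 6623, 4494 and 5528 CPM in P14 CTRL and 3026, 3039 and 3100 CPM in P90 CTRL. Without P14 CTRL replicate 2 the number of genes called was 47, with a median of -2.01, where the median over all genes was -0.02. The share of all genes called in that fit is not reported here, so that 47 cannot be set against the 29.3% of the full fit.

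**Figure D4:**
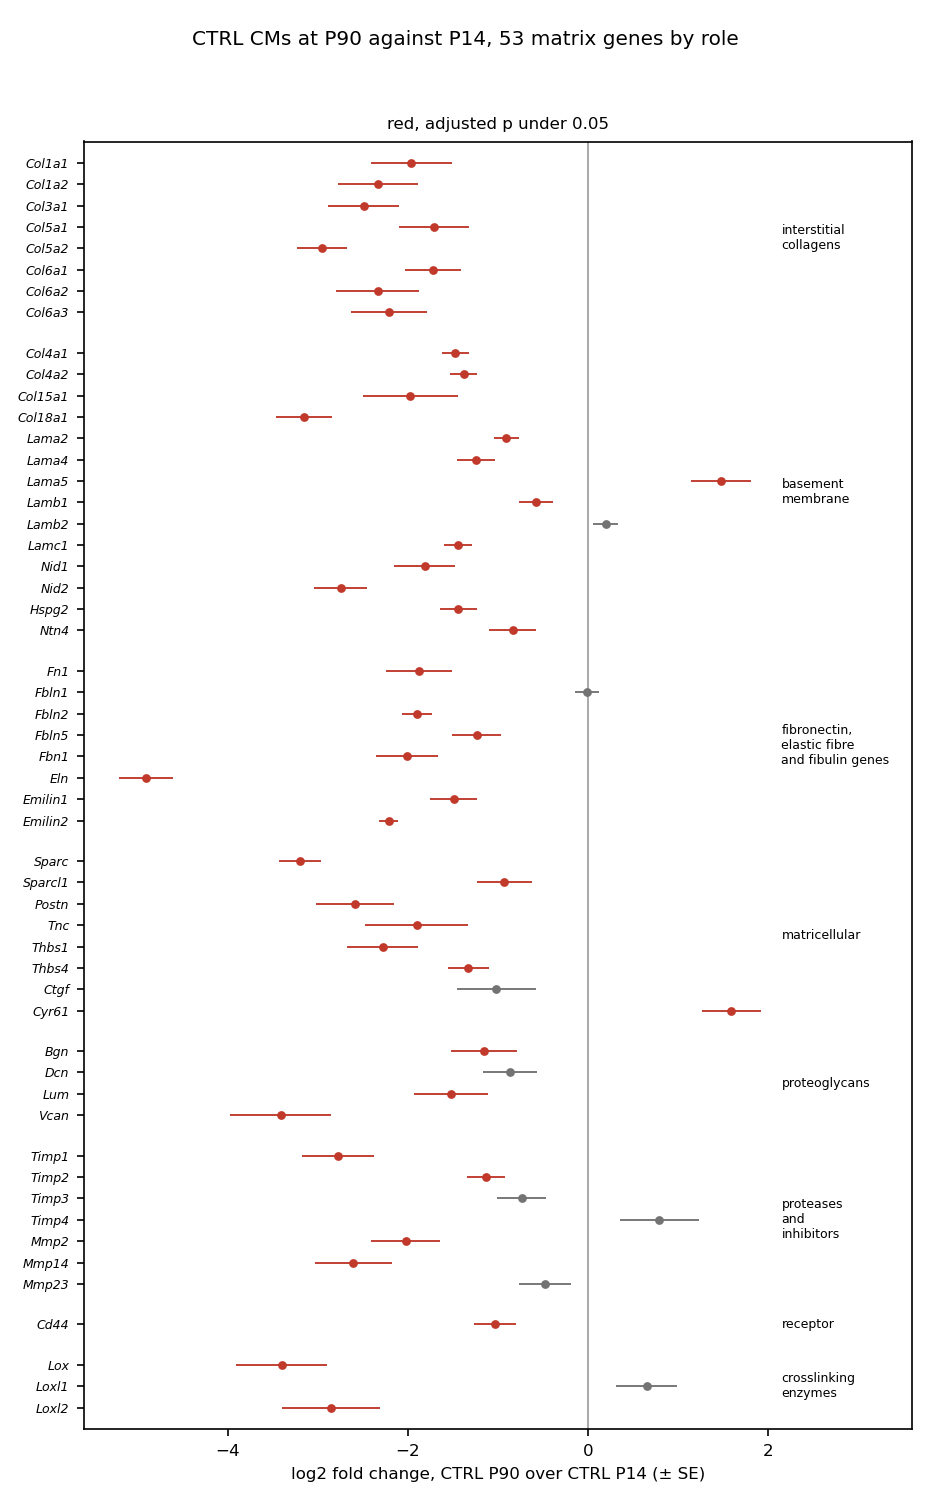
Log2 fold change of CTRL P90 over CTRL P14 with its standard error for the 53 genes, ordered and labelled by role. Red points mark the 45 genes with an adjusted p under 0.05, of which Lama5 and Cyr61 lie to the right of 0, and Eln, at -4.91, lies farthest to the left.

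The interstitial collagens were lower as a group, 8 of 8, by 1.71 to 2.95 on the log2 scale, with Col5a2, a chain of the type V collagen that nucleates fibrils, at -2.95 ± 0.28 (adjusted p = 0.000234). Eln was the gene with the largest fall of the 53, and was at 99.9, 53.4 and 59.5 CPM in P14 CTRL and 2.42, 2.82 and 1.90 CPM in P90 CTRL, a mean 29.8 times higher at P14 (-4.91 ± 0.30, adjusted p = 3.4e-05). Emilin2 had a mean 4.65 times higher at P14 (-2.22 ± 0.10) and Fbn1 4.01 times higher. Fbln1 was the exception of this group, at -0.01 ± 0.14 (adjusted p = 0.963), and its sign turned in 4 of the 12 alternatives, each of which left out a library.

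Of the basement membrane genes 12 of 14 were lower at P90, from Col18a1 at -3.16 ± 0.32 and Nid2 at -2.75 ± 0.30 to Lamb1 at -0.58 ± 0.19. Lama5, an alpha chain of mature vessel and epithelial basement membranes, was instead higher, at 37.5, 79.2 and 119 CPM in P14 CTRL and 188, 216 and 249 CPM in P90 CTRL (1.48 ± 0.34, adjusted p = 0.0117). Lamb2 was not called (0.20 ± 0.14, adjusted p = 0.309). The summed group was 1.6 times higher at P14, against 4.88 times for the interstitial collagens, and without P14 CTRL replicate 2 the ratios were 1.76 and 6.22.

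Of the matricellular genes 6 of 8 were lower, led by Sparc at -3.2 ± 0.24 (adjusted p = 6.36e-05) and Postn at -2.59 ± 0.44, while Cyr61 was higher (1.59 ± 0.32, adjusted p = 0.00689) and Ctgf was not called (-1.02 ± 0.44, adjusted p = 0.11). The groups did not overlap for Cyr61 and overlapped for Ctgf. Of the proteoglycans Vcan fell by 3.42 on the log2 scale and Dcn was not called (-0.86 ± 0.30, adjusted p = 0.0557). Timp1, Timp2, Mmp2 and Mmp14 were lower, from -1.13 to -2.78, while Timp3, Timp4 and Mmp23 were not called. Lox and Loxl2 were lower at -3.40 ± 0.50 and -2.85 ± 0.55, resting on 11 and 14 reads over the 3 P90 CTRL samples, and Cd44 was lower at -1.03 ± 0.24 (adjusted p = 0.0115).

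Markers of other cells differed between the stages as well, with summed levels in both directions. Of the fibroblast markers 8 of 9 tested had a negative log2 fold change, with a median of -0.41. Among them 1 was called lower at P90, Mfap5, which is also in the list of other matrix genes below. The sum of the fibroblast markers was 1.39 times higher at P14, at 16.5 to 22.9 CPM against 11.2 to 20.3 CPM. Of the endothelial markers 7 of 10 were lower, and their sum was 1.59 times higher at P14, at 290.1 to 607 CPM against 250.5 to 323.1 CPM. The summed mural and macrophage markers stood the other way, at 0.855 and 0.727 times their P90 level at P14. By gene, however, 6 of 8 mural markers had a negative log2 fold change from P14 to P90, with a median of -0.59. Among them 1 was called lower, while 1 mural marker was called higher. Of 8 macrophage markers tested 4 were positive and 4 negative, with 0 called and a median of 0.007. Without P14 CTRL replicate 2 the ratios of the 4 lists were 1.53, 1.86, 0.935 and 0.827. The ratio for the interstitial collagens was above that of each of these 4 lists, a comparison without a test. It was below that of the red blood cell markers, at 9.12 and a mean of 1.54 CPM in P14 CTRL and 0.169 CPM in P90 CTRL. Of the 4 red blood cell markers 2 were in the tables, and 1 of these was at 0 in all samples. That ratio thus rests on 1 gene, which was at or below the floor at P90. The part of non-CM cells in the stage difference was not tested.

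A list of 117 other matrix genes, of which 114 were in the tables, was read in the same fits. In the neonatal KO 8 of the 90 tested rose and 3 fell, next to 3.99% and 4.60% of all genes. Sdc2, the syndecan 2 gene of a surface proteoglycan, rose by 0.92 ± 0.12 (log2 fold change ± SE, adjusted p = 0.00823), Col4a5, a minor type IV collagen chain, by 0.87 ± 0.14 (adjusted p = 0.0132), and Fbn2, the fibrillin of growing tissue, by 1.47 ± 0.27 (adjusted p = 0.0189). Fstl1, Leprel1 and Bmp1, the last of which encodes the enzyme that trims procollagen ends, rose by 0.62 to 1.30. Smoc2 fell by 1.27, Ogn, the osteoglycin gene, fell by 0.99 and Lamb3 fell by 0.83 on the log2 scale. In the adult KO 1 of 81 rose (1.23%), where 0.237% of all genes did. It was Adamts1, a secreted protease that cuts versican, from a mean of 36.1 to 80.3 CPM (1.16, adjusted p = 0.0454). Between the stages in CTRL 27 of 87 were lower at P90 (31.0%) and 5 higher (5.75%), where 14.9% and 14.5% of all genes were. Their median was -0.57 against -1.71 for the 53 genes.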

How the data were processed

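RNA-seq libraries of 12 samples of sorted CMs were analysed. The labels name the molecule as polyA RNA. Per the study's methods, cDNA was amplified from total RNA with SMART-Seq v4 and sequenced as single-end reads, without molecular identifiers. The deposited values are raw counts per gene for 23337 genes in 2 tables, 1 per stage, which the authors made with CASAVA 1.8, STAR 2.5.3a and featureCounts of Subread 1.5.2 on mm10, per the submitters' processing notes. Whether counting used strand, and how multi-mapped reads were handled, is not given in the sources used here.

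Groups came from the sample labels. Differences were tested on the counts with edgeR 4.0.16 (R 4.3.3): filterByExpr, TMM factors, the quasi-likelihood F-test and Benjamini-Hochberg adjustment over all genes tested, at a threshold of 0.05. Each KO and stage comparison was fitted on its own 6 samples and the interaction on all 12. Standard errors are the log2 fold change divided by the root of F. The fitting scripts were tested on simulated data. The 53 genes, the other matrix list and the 8 marker lists were chosen with earlier results of these data known, and the non-overlap counts, with and without P14 CTRL replicate 2, and the sums without it were added after values were seen. Values in every sample are given for genes called in a KO or interaction fit, the most abundant gene per kb of each role and genes with a printed sequence. Others are named by role, and other matrix genes where called in a KO, of which some are not reported here. Floors cover counting error only.

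DESeq2 1.42.0, limma 3.58.1 (voom), other scalings, no filter, a replicate block, a fit of all 12 samples and each replicate left out were tried as alternatives. Promoter windows of 250 bases came from RefSeq (GRCm38.p6) for 37 of the genes.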

Additional observations from a re-analysis of the deposited data

Results flagged for a closer look

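The response of 2 genes differed between the neonatal and the adult KO by the interaction test in edgeR (Benjamini-Hochberg adjusted). For Mmp23 the neonatal log2 fold change was larger by 2.13 (adjusted p = 0.021), and P14 KO was above P14 CTRL in 3 of 3 samples, as was P90 KO over P90 CTRL. Over all 19 fits the difference ran from 1.98 to 2.35, with an adjusted p between 2.92e-05 and 0.0633, and 15 of the 19 called it. For Cd44 it was larger by 1.85 (adjusted p = 0.025), and KO and CTRL did not overlap at P14 and overlapped at P90. Over the 19 fits it ran from 1.64 to 2.08, with an adjusted p between 3.93e-05 and 0.0822, and 13 of the 19 called it. Stage cannot be told apart from the separate handling of the P14 and P90 samples.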

How the results depend on the processing

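Percentages are the share of all genes called in the same fit. The number of listed genes called in the neonatal KO was 5 (8.59% of all genes). It became 9 with DESeq2 (14.1%), 9 with library sizes from total counts (13.7%) and 8 in a fit of all 12 samples (16.3%). When a replicate was left out it was 3 to 8, where 0.873% to 7.85% of all genes were called. The 3 stood beside 0.873% and the 8 beside 6.02%. The adult number was 2 (0.390%). It became 4 with DESeq2 (3.94%), 8 with no filter on low counts (3.6%) and 0 in the fit of all 12 samples (0.0234%). With a replicate left out it was 1 to 3, where 0.0507% to 0.422% of all genes were called. The fit of all 12 samples shares 1 estimate of the spread over both stages. The interaction number was 2 (1.78%), and became 4 with DESeq2 (9.39%), 1 with limma voom (1.48%) and 0 to 3 when a replicate was left out. For the interaction and the stages, the shares with a replicate left out are not reported here. The number called between CTRL stages was 45 (29.3%) and stayed between 36 and 48. Apart from the reasons that a setting's construction gives, the cause of these changes was not tested. With total counts the median of all genes in the neonatal KO moved to 0.22 (log2) and that of the listed genes to 0.42.

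The groups share replicate numbers in the labels. With a replicate block 10 genes were called in the neonatal KO (12.2% of all genes), 7 in the adult KO (5.55%), 4 in the interaction (5.35%) and 42 between CTRL stages (25.5%). Deviations of same-numbered CTRL and KO samples correlated at 0.074, 0.152 and 0.394 at P14 and 0.271, 0.0233 and 0.0842 at P90. Those of differently numbered samples ran from -0.257 to 0.145 at P14 and from -0.332 to 0.217 at P90. The labels state no pairing and not every sample correlated best with its own number, so the numbers were not taken to pair samples.

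Of 271 alternative values for single genes, 230 kept direction and side of the threshold, 31 lost a call and 5 gained it. The log2 fold change of Fbln1 between CTRL stages, -0.01, ran from -0.15 to 0.095 when a replicate was left out and turned to 0.0097, 0.0066, 0.095 and 0.021 without P14 CTRL replicate 1, P14 CTRL replicate 3, P90 CTRL replicate 2 and P90 CTRL replicate 3. Allowing 1 core mismatch raised the CArG windows from 1 to 6. Depth limited Tnc, Lox and Loxl2 at P90, with 11 to 14 reads over the P90 CTRL samples.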
